A study of Drosophila melanogaster with 4 samples.

Results

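The Iroquois complex of Drosophila melanogaster is the gene cluster of araucan (ara), caupolican (caup) and mirror (mirr) on chromosome arm 3L. It was examined here in lists of H3K9ac-enriched regions, called clusters, from whole wild-type embryos. The clusters were taken by position, as all that overlap 3L 12560000 to 12710000 in FlyBase release 5, the build named in the file headers. This 150 kb window holds ara, caup and mirr in this order. It contained 31 of the 8495 clusters of ChIP replicate 1, 23 of the 6772 of ChIP replicate 2 and 31 of the 12322 of the series-wide list. In all, 85 of 27589 clusters belonged to it.

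Chromatin came from embryos of strain Oregon-R (Oregon-R-modENCODE), genotype wild type, collected at 14 to 16 h of development. The series has 2 H3K9ac ChIP samples and 2 input samples, and each input served one ChIP list. No input values were used here, and there is no treatment or mutant. Whether the replicates were separate embryo collections is not said in the labels, so the SDs below may measure technical spread alone. Whole embryos mix many tissues, so a cluster may stand for a mark in few cells or in many.

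Ara, Caup and Mirr are homeodomain transcription factors of the TALE class, and their vertebrate relatives are the Irx proteins. The genes are known for setting up broad territories in imaginal discs, such as the notum and the dorsal eye, and, as prepattern genes, for activating the proneural achaete-scute genes. ara and caup are expressed in largely the same pattern, while mirr has a partly different one. The complex has long intergenic regions with many enhancers and is a known target of Polycomb group repression. H3K9ac, histone H3 acetylated at lysine 9, is found at active promoters and also at active enhancers.

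ara (CG10571), caup (CG10605) and mirr (CG10601) were all found by symbol in the gene table at hand, which belongs to Release 6 of the genome. In its order, no annotated gene lies between ara and caup, and 4 long non-coding RNA genes lie between caup and mirr. These are lncRNA:CR32111, lncRNA:CR43431, lncRNA:CR44553 and lncRNA:CR44552. The nearest protein-coding neighbours are sowah before ara and SmD1 after mirr. Coordinates were not converted between releases, so no cluster is assigned to a promoter, exon or intron, and clusters are named by position.

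H3K9ac clusters filled most of the Iroquois window in the series-wide list and in replicate 1, and a smaller part of it in replicate 2. In replicate 1, 93.1 kb of the window lay in clusters, or 62.0%, against 20.3% of the rest of 3L. In replicate 2, it was 47.4 kb, or 31.6%, against 13.7%. The authors' series-wide list covered 115.7 kb, or 77.2%, against 27.9%. The window thus had 3.05 times the coverage of the rest of 3L in replicate 1 and 2.31 times in replicate 2, a mean of 2.68 ± 0.523 (SD, n = 2 replicates, as in every mean below). Coverage in the window averaged 46.8% ± 21.5, and on the rest of 3L 17.0% ± 4.71. The window exceeded the rest of the arm within each list, although its 2 replicate values stand far apart. With 2 replicates, an exact paired two-sided permutation test cannot give a p under 0.5, so this difference and those below have no test.

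Among stretches of the same length, the Iroquois window was at or near the top of the arm. 3L was cut into tiles of 150 kb, laid so that the window was 1 of 162. In replicate 1, 0 of the 161 other tiles had a higher coverage, and the highest of them reached 59.5%, with a median of 19.4%. In replicate 2, 4 of the 161 were higher, with a maximum of 37.9% and a median of 13.1%. In the authors' series-wide list, 0 were higher, with a maximum of 76.2% and a median of 25.5%. The tile just before the window, towards the telomere, had 43.7% in replicate 1 and 30.2% in replicate 2. The tile just after it had 21.8% and 16.9%. Coverage on the first side was thus closer to that of the window, and on the second side closer to the rest of the arm.

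**Figure D1:**
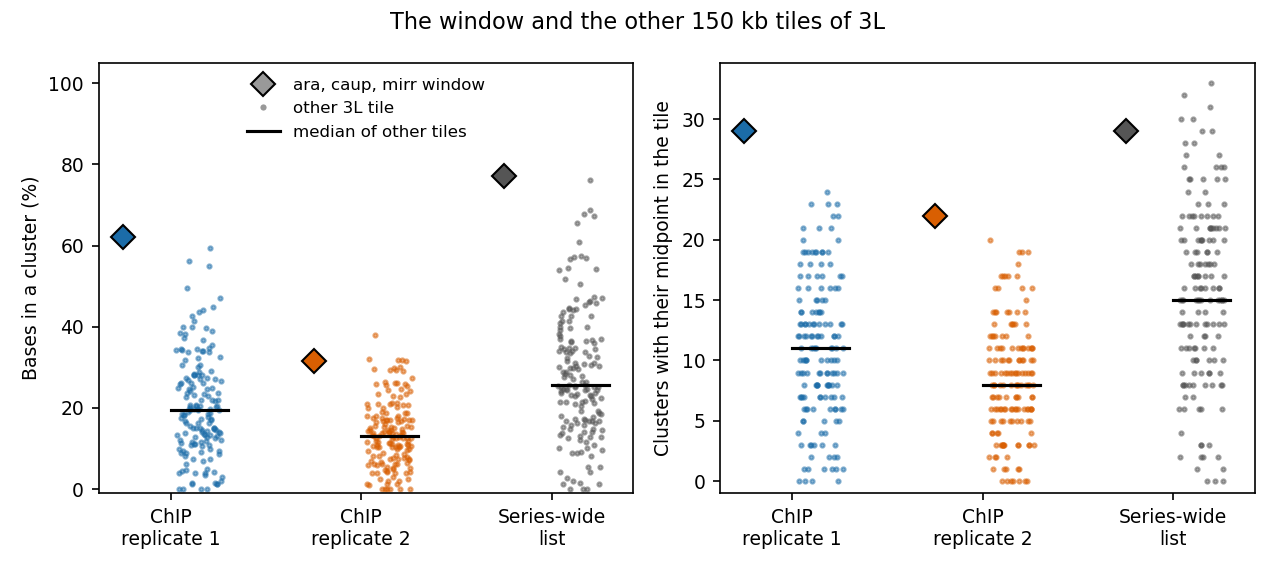
Coverage (left panel, percent of bases in a cluster) and number of clusters with their midpoint inside (right panel), for the Iroquois window (diamond) and for each of the 161 other 150 kb tiles of 3L (points, spread sideways at random, with a line at their median), in each list. The window lies above all other tiles in replicate 1 in both panels, and above all but 4 in coverage in replicate 2.

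Clusters stood densely in the window. By midpoint, the window held 29 clusters in replicate 1, or 193 per Mb, against 71.5 per Mb on the rest of 3L. Replicate 2 had 22 midpoints, or 147 per Mb, against 54.8. The exact 95% Poisson intervals of the window densities, 129 to 278 and 91.9 to 222 per Mb, cover counting error alone. The density ratio was 2.71 in replicate 1 and 2.68 in replicate 2, a mean of 2.69 ± 0.0197. The other tiles of 3L held at most 24 midpoints in replicate 1 and at most 20 in replicate 2, so none of the 161 reached the window. With 29 midpoints in the series-wide list too, the window was exceeded there by 5 of the 161 tiles.

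Median cluster width in the Iroquois window was somewhat below that of the arm in both replicates. The median was 2139 bp in the window and 2266 bp on the rest of 3L in replicate 1. It was 1816 bp and 2129 bp in replicate 2. The mean of the medians was 1978 ± 228 bp against 2198 ± 96.9 bp. These SDs are over replicates and do not measure the spread of the difference within a list. The series-wide list had the other order, with 2915 bp in the window against 2067 bp on the rest of the arm. Widths spanned 1310 to 13619 bp in replicate 1 and 1361 to 7060 bp in replicate 2. In replicate 1 the mean width was larger in the window, at 3114 bp against 2844 bp on the rest of 3L. In replicate 2 it was smaller, at 2115 bp against 2493 bp. Clusters of at least 3 kb made up 32.3% of the window clusters in replicate 1, against 31.4% on the rest of 3L. In replicate 2 they made up 8.70% against 23.6%, and in the series-wide list 41.9% against 28.0%.

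Neighbouring clusters in the window lay close together. The median gap was 1067 bp in the window and 4019 bp on the rest of 3L in replicate 1, and 1870 bp against 6177 bp in replicate 2. It was 478 bp against 2467 bp in the series-wide list. Gaps of at most 1 kb made up 15 of the 30 gaps of the window in replicate 1, while they made up 21.4% on the rest of 3L. In replicate 2 they were 5 of 22, and 15.7% on the rest. The median gap was shorter at the Iroquois complex in each list.

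**Figure D2:**
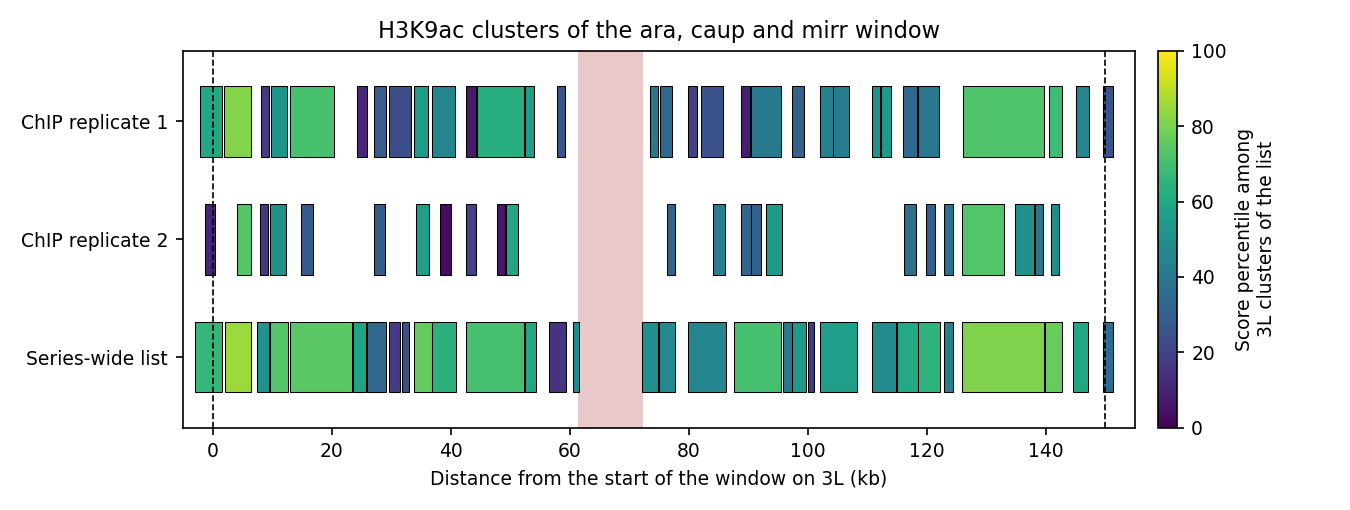
Every H3K9ac cluster that overlaps the Iroquois window, drawn to scale as a box in each list, coloured by the percentile of its score among the 3L clusters of that list. The horizontal axis is the distance in kb from the start of the window, dashed lines mark its ends, and the shaded band is the 10.6 kb stretch with no cluster in any list.

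By score, most clusters of the complex were of middle rank, with few at the top of the arm. The authors' score has no stated unit, so it was ranked among the 3L clusters of its own list. The median percentile of the window clusters was 40.5 in replicate 1 and 36.6 in replicate 2, a mean of 38.6 ± 2.82, against 50.3 and 50.4 for the clusters of the rest of 3L. Percentiles spanned 7.14 to 81.3 in replicate 1 and 2.98 to 73.4 in replicate 2. At or above the 75th percentile of the arm stood 1 of the 31 clusters of replicate 1 and 0 of the 23 of replicate 2. Below the 25th stood 7 and 5, and the other 23 and 18 stood between. By construction, about 25% of the 3L clusters of a list stand in each outer range. The lower counts were thus close to that share. The series-wide list gave another order, with a median percentile of 55.8, and with 4 of the 31 clusters above the 75th percentile and 4 below the 25th.

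Among clusters of at least 3 kb, the median score percentile was also lower in the window than on the rest of the arm. This comparison was chosen after the values were seen, and widths above 3 kb were not matched. The 10 such clusters of the window had a median percentile of 52.7 in replicate 1, against 74.6 for 547 on the rest of 3L. The 2 such clusters of the window in replicate 2 stood at 50.0 and 73.0, while the 315 on the rest had a median of 80.4. The 13 of the window in the series-wide list had a median of 64.5, against 77.1 for 702. The Spearman coefficient of width and score across clusters was 0.514 in the window against 0.732 on the rest of 3L in replicate 1, and 0.558 against 0.712 in replicate 2. The series-wide list had the opposite order, with 0.641 in the window against 0.595. Clusters share a library and are not independent replicates.

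**Figure D3:**
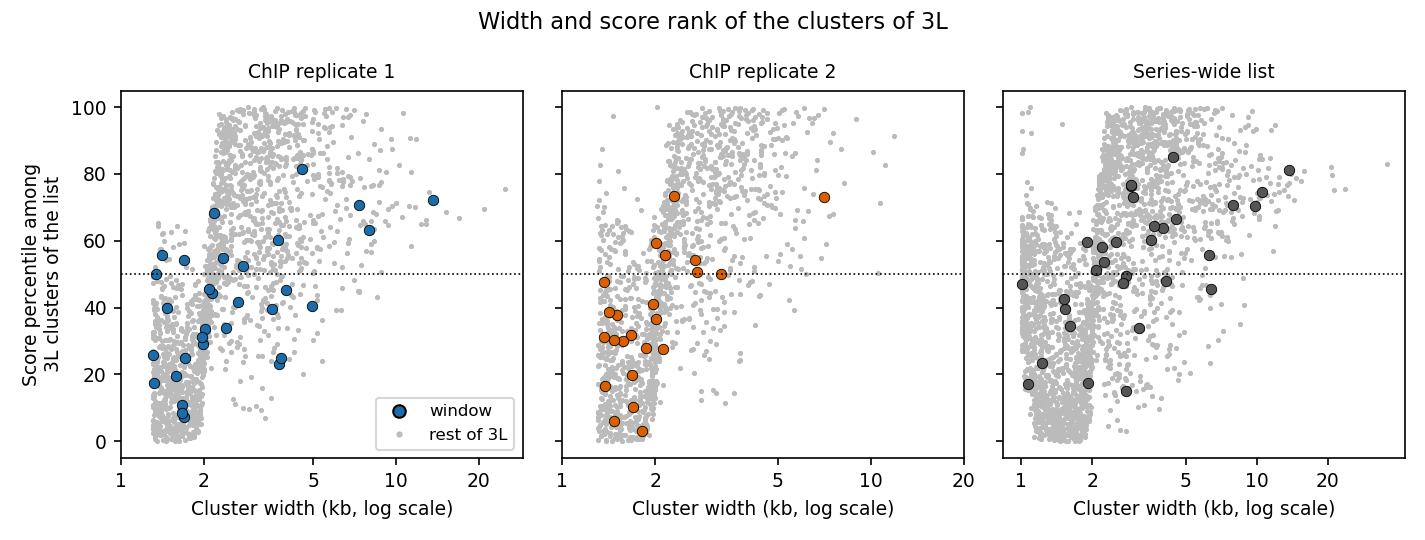
Score percentile among the 3L clusters of a list against cluster width in kb on a log axis, one panel per list, with clusters of the Iroquois window as large coloured points and those of the rest of 3L as small grey points. The dotted line marks the 50th percentile. In replicates 1 and 2, 1 and 0 of the window clusters lie above the 75th percentile, where about 25% of all 3L clusters of a list lie by construction.

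In both replicates the ratio of coverage at the complex to that of the arm was higher for low-scoring clusters. Those below the median score of their list covered 34.7% of the window against 7.94% of the rest of 3L in replicate 1, a ratio of 4.37. Such clusters of replicate 2 covered 22.6% against 5.85%, a ratio of 3.86. Clusters scoring at least that median covered 27.3% of the window in replicate 1, against 12.4%, a ratio of 2.21. In replicate 2 they numbered 4 in the window and covered 9.02% of it, against 7.80%, a ratio of 1.16. For the series-wide list the ratio was 2.30 for the lower and 3.03 for the upper scores, so this order did not hold there.

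Along the complex, H3K9ac had a left block, a break, and a right part that held its widest domain near the end. The break was 14.3 kb long in replicate 1 and 25.1 kb in replicate 2. In replicate 2 the right part also held a free stretch of 20.5 kb. In bins of 10 kb, coverage averaged 60.7% ± 22.0, 70.0% ± 35.5, 31.5% ± 18.2, 63.6% ± 35.0 and 60.5% ± 29.5 over the first 50 kb. These bins are called the left block here, for description only. Coverage was 31.8% ± 26.7 in the next bin and 0% in both replicates in the bin 60 to 70 kb from the start of the window. Beyond the break it was 24.8% ± 15.9, 48.3% ± 23.9, 60.4% ± 18.0, 24.0% ± 33.9 and 44.7% ± 34.2 in the bins up to 120 kb. The bin at 100 to 110 kb had 48.0% in replicate 1 and 0% in replicate 2. Coverage was then 64.6% ± 6.22 and 87.4% ± 13.3 in the bins at 120 to 130 and 130 to 140 kb, and 29.9% ± 23.0 in the last. Coverage was above that of the rest of 3L in 14 of the 15 bins in replicate 1, in 10 in replicate 2 and in 14 in the series-wide list. In 13 of the 15 bins replicate 1 was higher, and in 1, at 120 to 130 kb, replicate 2 was. Across the 15 neighbouring bins the replicates had a Spearman coefficient of 0.772, given as a description.

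**Figure D4:**
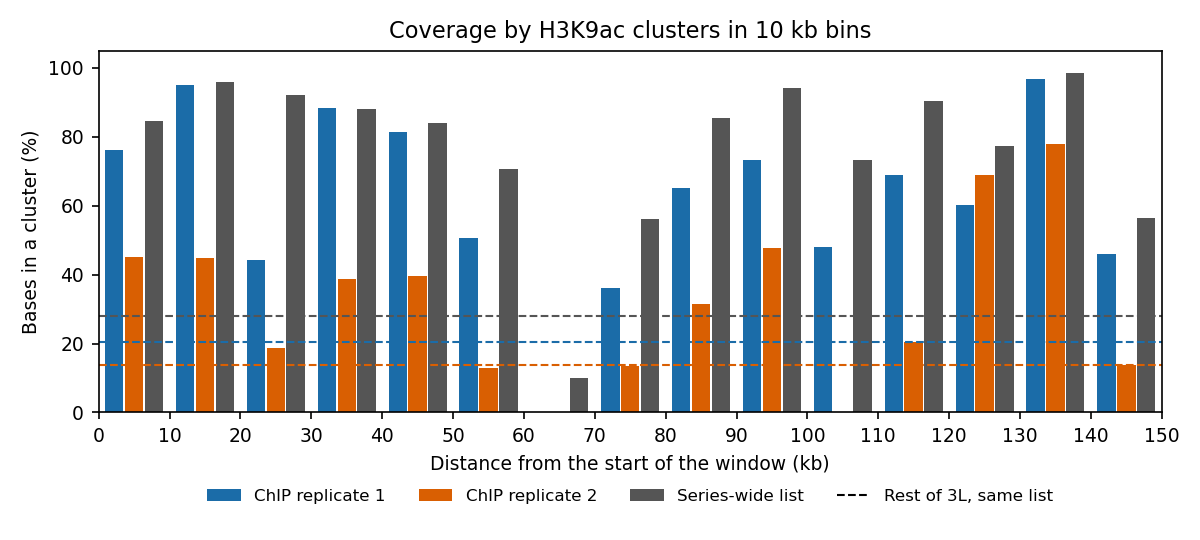
Percent of bases in an H3K9ac cluster in each 10 kb bin of the Iroquois window, by distance from its start in kb, for each list (bars). Dashed lines give the coverage of the rest of 3L in the same list, which is 20.3%, 13.7% and 27.9%. The bin at 60 to 70 kb has 0% in both replicates, and the highest bin in each list is at 130 to 140 kb.

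The strongest and widest H3K9ac region towards the mirr end of the window lay at 12686020 to 12699768 in the series-wide list. It was 13.7 kb wide, the 11th widest of the 2534 clusters of 3L in that list. Its score of 0.785 was only 476th on the arm. Replicate 1 had it as 1 cluster at 12686060 to 12699678, scoring 0.867. This was the 5th widest of its 1772 on 3L but 495th by score. Replicate 2 broke it into 3 clusters, namely 12686044 to 12693103, scoring 1.01, then 12694810 to 12698081 with 0.776 and 12698201 to 12699618 with 0.710. The first of these, at 7060 bp, was the 15th widest of 1358 on 3L and 367th by score. The others were 679th and 833rd by score. Replicate 1 covered 99.1% of the series-wide domain and replicate 2 covered 85.5%. Its left ends in the 3 lists lie within 40 bp of each other. The region thus recurred in both replicates, whole in one and in pieces in the other. A narrower cluster followed at 12699912 to 12702826. It scored 0.804 in replicate 1, 0.760 in replicate 2 and 0.663 in the authors' combined list. Ranked among the 3L clusters of each list, these scores stood at percentiles 68.4, 47.8 and 76.8.

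The highest score of the window belonged to a cluster near its other end, on the ara side, at 12562060 to 12566470. It scored 1.09 in replicate 1, 1.01 in replicate 2 and 0.906 in the authors' combined list, first of the window in each. On the whole arm it was 331st, 362nd and 377th by score. Its right end was close in all, at 12566461 in replicate 1, 12566404 in replicate 2 and 12566470 in the combined list, while the left end of the replicate 2 cluster, at 12564102, lay 2194 bp inside that of replicate 1. To its right followed series-wide clusters at 12567436 to 12569508, with 0.451, at 12569626 to 12572608, with 0.597, and at 12573004 to 12583496, 10.5 kb wide, with 0.621. Replicate 1 covered 69.8% of this wide cluster with 1 cluster, and replicate 2 covered 20.3% with 1. The region at 12593926 to 12596858 scored 0.661 in the combined list, and the main cluster under it scored 0.673 in replicate 1 and 0.815 in replicate 2. Ranked among the 3L clusters of each list, these scores stood at percentiles 76.5, 54.9 and 55.7.

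The other wide series-wide clusters were less marked in replicate 2. The one at 12602524 to 12612388, 9.87 kb wide, had 97.9% of its bases in 2 clusters of replicate 1 and 52.4% in 3 of replicate 2. On the other side of the break, 12647690 to 12655626, 7.94 kb wide, had 83.1% in 2 clusters of replicate 1 and 74.6% in 3 of replicate 2. The cluster at 12639874 to 12646234, 6.36 kb wide, had 84.9% in 2 and 30.9% in 1. The scores of these 3 in the series-wide list were 0.563, 0.565 and 0.435. Of the 5 widest clusters of the window in that list, replicate 2 covered a smaller share than replicate 1 in each.

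A single stretch of over 10 kb had no cluster in any list, at 12621555 to 12632151, or 10.6 kb. It began 61.6 kb into the window, right of the left block. In replicate 1 the break ran from 12619233 to 12633486, or 14.3 kb, and in replicate 2 from 12611291 to 12636368, or 25.1 kb. It was the longest stretch of the window in each list. Replicate 2 had 2 further stretches of over 10 kb, at 12655643 to 12676178, or 20.5 kb, and at 12576959 to 12587183, or 10.2 kb, and replicate 1 covered parts of both. All other stretches with no cluster in any list were at most 2.44 kb long. The window thus had 1 such stretch, against 428 on the rest of 3L, or 2.63 per 150 kb.

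The longest cluster-free stretch was shorter at the complex than in most tiles of the arm. Stretches of over 10 kb numbered 1 in replicate 1, against 2.78 per 150 kb on the rest of 3L. In replicate 2 they numbered 3, against 3.09, so their number there was close to that of the arm. The longest of a 150 kb tile was 14.3 kb in the window against a median of 42.0 kb over the other tiles of 3L in replicate 1, and 25.1 kb against 51.0 kb in replicate 2. A shorter longest stretch was seen in 5 of the 161 tiles in replicate 1 and in 15 in replicate 2. The window had 10.6 kb in the series-wide list against a median of 32.0 kb, and 6 tiles had less.

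Nearly all clusters of replicate 2 recurred in replicate 1, and a smaller share the other way. Of the 23 clusters of replicate 2, 22 overlapped one of replicate 1 by at least 1 bp, or 95.7% (95% exact binomial interval 78.1 to 99.9%, counting error alone), where 91.8% did on the rest of 3L. Of the 31 of replicate 1, 18 overlapped one of replicate 2, or 58.1% (39.1 to 75.5%), where 64.9% did on the rest of 3L. The intervals treat clusters as independent, which clusters of a library are not, so they give no test against the rest of the arm. By bases, 44.4 kb of the window lay in both replicates, 48.6 kb in replicate 1 alone and 2.97 kb in replicate 2 alone. The Jaccard index, the share of bases in either replicate that lay in both, was 46.3% in the window and 57.5% on the rest of 3L. Unequal coverage of the replicates limits how high this index can be. Of the bases of replicate 2, 93.7% lay in both in the window and 90.8% on the rest of 3L. For replicate 1 these shares were 47.7% and 61.0%. Replicate 1 covered 1.96 times as many bases as replicate 2 in the window, and 1.49 times on the rest of 3L.

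Of the 13 clusters of replicate 1 without a partner, 3 lay inside the longer break of replicate 2. These were 12612566 to 12613974, scoring 0.681, 12617923 to 12619232 with 0.529 and 12633487 to 12634949 with 0.587. A row of 5 stood in the 20.5 kb that replicate 2 left free, namely 12657439 to 12659409, 12662120 to 12664258, 12664343 to 12666998, 12670813 to 12672150 and 12672309 to 12673999. Their scores ran from 0.549 to 0.670. In the left block were 12584226 to 12585888, scoring 0.439, and 12589608 to 12593346 with 0.511. On the right were 12639871 to 12641451 with 0.495, 12705151 to 12707234 with 0.614 and 12709648 to 12711356 with 0.525. The median width was 1691 bp for these 13, against 3149 bp for the 18 with a partner, while median scores were close, at 0.587 and 0.601. The 1 cluster of replicate 2 without a partner was 12682889 to 12684396, scoring 0.702, and the series-wide list had a cluster there too.

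Where clusters matched one to one, their edges were farther apart than elsewhere on the arm. The window held 14 such pairs, whose starts differed by 246 bp and ends by 234 bp in the median. Over 996 pairs on the rest of 3L these medians were 118 and 116 bp. Replicate 1 was the wider in 12 of the 14 pairs of the window, and in 79.3% of those of the rest. The tightest pair was at 12602639 to 12604328 in replicate 1, whose edges lay 12 and 14 bp from those in replicate 2. Scores of the pairs had a Spearman coefficient of 0.473 in the window and 0.838 on the rest of 3L, and with 14 pairs from the same libraries the first is a loose description. Replicate 1 clusters that spanned more than 1 of replicate 2 were 4 of 31 in the window, or 12.9%, and 5.57% on the rest of 3L.

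Some clusters of the series-wide list spanned more than 1 replicate cluster of the window, and the list also covered bases that lay in neither replicate. It also had 2 clusters over the replicate 1 cluster at 12589608 to 12593346. Of its 31 clusters, 16 overlapped both replicates, or 51.6% (33.1 to 69.8%), where 42.8% did on the rest of 3L. Another 11 overlapped replicate 1 alone, or 35.5% (19.2 to 54.6%), where 22.0% did, and 1 overlapped replicate 2 alone, or 3.23%, where 3.92% did. The remaining 3 overlapped neither, or 9.68% (2.04 to 25.8%), where 31.3% did on the rest of the arm. These 3 were narrow, at 12620554 to 12621554, 12655878 to 12657414 and 12660028 to 12661098, and scored 0.439, 0.420 and 0.349. The shares above were not adjusted for the higher coverage of the window by both replicates, which makes an overlap easier to meet there. Of the bases of the list in the window, 17.9% lay in neither replicate, against 24.2% on the rest of 3L. The list is named as that of the replicate set, and how it was made is not given, so it is not counted as a further replicate.

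The left edge of the window fell inside a cluster in each list, and the right edge in replicate 1 and the series-wide list. The first cluster of each list crossed the left edge, at 12557078 to 12561608 in the series-wide list, where it scored 0.524. The nearest clusters wholly outside on that side ended 3228 bp before the window in replicate 1 and 1336 bp before it in replicate 2, with scores of 0.376 and 0.566. On the right, the last cluster of the series-wide list, at 12709708 to 12711318, crossed the edge with a score of 0.407, as did that of replicate 1, while replicate 2 had none over the last 7.75 kb. The next clusters outside began 5024 and 4947 bp beyond the window in replicates 1 and 2, with scores of 0.620 and 0.775.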

How the data were processed

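H3K9ac ChIP-seq of embryos gave the 3 deposited lists used here, 1 for each of the 2 ChIP samples and 1 series-wide list of the replicate set. Per the file headers, they hold regions of significant enrichment in FlyBase release 5 coordinates, counted from 1. The score of each region is the authors' deposited value. Not given in the sources used here are its unit, the aligner, the caller and its threshold, and how the replicates were combined. Read depth is unknown, so no value has an interval for read sampling.

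Overlapping clusters were merged before bases were counted, over the window length or over the rest of the 24.5 Mb of 3L in the headers. Mappability was not modelled. Clusters belong to the window by an overlap of at least 1 bp, and density uses midpoints. Percentiles are mid-ranks within the 3L clusters of a list. Means ± SD are over the 2 ChIP replicates. The named regions are the 5 highest-scoring and 5 widest series-wide clusters of the window, replicate clusters without a partner, and stretches of over 10 kb free in all lists. Others named were chosen after their values were seen. The members and this rule were chosen with earlier results of these data known. The interval code was tested on simulated data and recovered 50 of 50 pairs of lists exactly. Alternatives were other windows, backgrounds, score limits, overlaps and lists. Clusters at the starts of ara, caup and mirr were planned but not computed, since no annotation of release 5 was used here. Tools were Python 3.11.15, numpy 2.4.6, scipy 1.17.1 and matplotlib 3.10.9.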

Additional observations from a re-analysis of the deposited data

How the results depend on the processing

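Of 41 alternative values, 26 stayed within the replicate SD or the interval, and on their side where there was a comparison value. Another 13 moved and 2 reversed. The longest free stretch and the overlap shares had no comparison value. The replicate SD was 0.0197 for the density ratio and 0.523 for the coverage ratio, so shifts of the same size can get different labels. The 10 values without a replicate are among the 26, since with 2 replicates neither can leave the SD. They spanned 2.31 to 3.05 for the coverage ratio, 2.68 to 2.71 for the density ratio, 36.6 to 40.5 for the score percentile, 1816 to 2139 bp for the width and 14.3 to 25.1 kb for the longest free stretch. The series-wide list reversed the median score percentile, to 55.8 from 38.6, and the width, to 2915 bp against 2067 bp on the rest of 3L, and moved the density ratio to 1.88 and the longest free stretch to 10.6 kb. Limited to clusters that scored at least the median of their list, the coverage ratio was 1.68, the density ratio 1.26, the percentile 24.2 among those clusters, the longest free stretch 73.4 kb, and the share of replicate 2 clusters found in replicate 1 was 100%, from 4 clusters. The same score limit in the series-wide list, added after seeing the data, gave a density ratio of 2.12 and a free stretch of 33.3 kb. The density ratio was 2.48 with the window widened by 50 kb on each side and 2.59 without the 1 Mb of 3L nearest the centromere. In the widened window the median width of replicate 1 changed side, at 2284 bp against 2263 bp on the rest of 3L. Replicate 2 had 1867 bp against 2127 bp, and the mean of the replicates kept its side. Ranked among the 5 large arms, the percentile was 33.1. With a 50% overlap, 38.7% of replicate 1 clusters were found in replicate 2. For this share and for the 100% above, no value over the rest of 3L was computed. Neither can therefore be set against the arm. The score limit leaves fewer clusters, and apart from that the cause was not tested. With tiles shifted by 75 kb, 0 of 161 exceeded the window in replicate 1 and 5 in replicate 2, and among 789 tiles of the 5 large arms 3 and 38 did. The alternative at gene starts was not run. No paired analysis was possible because the groups that share replicate numbers are ChIP and input, and input chromatin has no list of its own here. The window and the rest of 3L were set against each other within each ChIP list. What depth limits could not be measured.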
